A study of Mus musculus with 8 samples.

Results

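Oxidative phosphorylation is the final stage of energy supply in the heart, and 46 of its nuclear-encoded subunit genes are described here. They are 19 subunits of complex I, 4 of complex II, 6 of complex III, the carrier cytochrome c, 8 of complex IV and 8 of complex V, taken by symbol from a given list. All 46 were found among the 55487 genes of the count files, and all passed the filter on low counts. They were measured by RNA-seq in the left ventricles of 8 C57BL/6 mice aged 12 weeks. The 4 control animals are titled NLC and carry the genotype label wild-type. The 4 KO animals are labelled GPR116-/- and myocyte-specific, GPR116 being another name of ADGRF5, an adhesion G protein-coupled receptor. Males are replicates 1 and 2 of each group, females replicates 3 and 4. The promoter or Cre line behind the deletion is not given in the sources used here. By its title, the series places the receptor in cardiac homeostasis, and the comparison asks which ventricular transcripts differ when cardiomyocytes lack it.

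The respiratory chain lies in the inner mitochondrial membrane. Complex I takes electrons from NADH and complex II takes them from succinate. Both pass them through ubiquinone to complex III, from there by cytochrome c to complex IV, and on to oxygen. Complexes I, III and IV pump protons, and complex V, the ATP synthase, uses the returning protons to make ATP. A few core subunits are encoded in the mitochondrial genome and all others in the nucleus, so both sets of genes are needed for complexes I, III, IV and V, while complex II is entirely nuclear-encoded. Cardiac muscle is packed with mitochondria, and several complex IV subunits exist in a heart and skeletal muscle form and in a more general form.

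The libraries held 25.33 to 39.62 M gene reads, with KO replicate 1 the deepest, and the 46 genes took 3.64% to 4.11% of them. Adgrf5 itself stood at 233 ± 17.4 CPM in NLC and 224 ± 15.7 CPM in KO (SD, n = 4 each). CPM are counts scaled to library size by edgeR's TMM method. The log2 fold change of Adgrf5, KO over NLC, was -0.052 (edgeR, adjusted p = 0.782), so no loss of it was detected. Its level thus does not check the genotype labels, on which every direction given here rests. Other ventricular cells are known to express Adgrf5, and their part in this level was not tested. Cardiomyocyte markers were plentiful, at a summed 65151 to 78763 CPM in NLC and 69908 to 82677 CPM in KO. The library numbers place both male KO animals ahead of both male NLC animals, so number and genotype cannot be told apart in males, while in females the NLC numbers lie between those of the KO animals. The 4 markers of atrial muscle stood at a summed 381 to 6003 CPM in NLC and 359.5 to 1436 CPM in KO. The value of 6003 CPM was that of NLC replicate 4, and the next in NLC was 811 CPM in replicate 2. All 4 had a log2 fold change of KO over NLC below 0 (median -3.17). By edgeR 2 of them had an unadjusted p under 0.05, against 11.9% of all genes, and 0 an adjusted p under 0.05.

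A pair of libraries stood apart for genes with short transcripts. Transcript length is that of the principal transcript in the GENCODE M21 annotation. Among 147 other nuclear protein-coding genes with transcripts under 750 bases and a mean of at least 10 CPM, the median level centred over the 8 libraries was 0.32 in KO replicate 1 and -0.30 in NLC replicate 2, in log2 units. In the remaining libraries it ran from -0.080 to 0.054. For the 7126 genes of 1500 bases and over it lay between -0.027 and 0.054 in all 8 libraries. The same libraries were the highest KO and the lowest NLC for the 46 genes themselves, at a mean centred level of 0.20 and -0.14, so that leaving both out brings the difference between their group means down by construction. Values without them are given beside many results as a description of their weight, not as a test.

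The sequences of a pair of complex IV subunits and their general counterparts are shown because the heart and general forms are counted as separate genes, and a read can be assigned only where they differ. The reading frames below are from GENCODE M21 on GRCm38, written 5′ to 3′ with the start and stop codons in capitals. Cox8b lies at chr7:140898988-140900342 on the minus strand, Cox8a at chr19:7215389-7217512 on the minus strand, Cox7a1 at chr7:30184231-30185967 on the plus strand and Cox7a2 at chr9:79755547-79759657 on the minus strand.
Cox8b: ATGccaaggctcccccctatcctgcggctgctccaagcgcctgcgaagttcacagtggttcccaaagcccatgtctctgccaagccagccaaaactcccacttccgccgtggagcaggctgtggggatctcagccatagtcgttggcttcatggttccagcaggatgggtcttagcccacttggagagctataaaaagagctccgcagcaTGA
Cox8a: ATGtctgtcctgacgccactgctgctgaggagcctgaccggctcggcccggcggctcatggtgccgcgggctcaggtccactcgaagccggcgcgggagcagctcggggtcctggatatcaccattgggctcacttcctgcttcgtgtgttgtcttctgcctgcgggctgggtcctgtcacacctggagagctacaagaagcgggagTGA
Cox7a1: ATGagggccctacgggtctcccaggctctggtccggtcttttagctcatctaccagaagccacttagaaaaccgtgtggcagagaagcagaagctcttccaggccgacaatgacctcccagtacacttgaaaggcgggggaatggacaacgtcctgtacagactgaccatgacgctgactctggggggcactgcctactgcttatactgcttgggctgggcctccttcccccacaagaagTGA
Cox7a2: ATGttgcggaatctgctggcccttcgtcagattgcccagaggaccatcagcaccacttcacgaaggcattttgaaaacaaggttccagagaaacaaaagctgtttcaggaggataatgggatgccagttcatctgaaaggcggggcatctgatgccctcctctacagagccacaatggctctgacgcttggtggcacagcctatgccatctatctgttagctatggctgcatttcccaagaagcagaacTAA
In a global alignment, the frames of Cox8b and Cox8a were 52.5% identical and shared no run longer than 10 bases. Those of Cox7a1 and Cox7a2 were 60.3% identical with a longest shared run of 12 bases. For the third such pair, Cox6a2 and Cox6a1, identity was 56.0% and the longest shared run 12 bases.

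None of the 46 genes passed the test between KO and NLC. At an adjusted p under 0.05 by edgeR's quasi-likelihood test, 0 of 46 were called, against 15 of 14695 genes tested (0.102%). DESeq2 and limma voom also called 0 of 46. For these tools no share over all genes is given beside a count of 0, here or below, so such counts lack a background. Without a filter on low counts edgeR called 2, Cox8b (adjusted p = 0.00418) and Atp5o (adjusted p = 0.0269). That setting called 621 genes in all, against 15 with the filter. At an unadjusted p under 0.05 there was 1 gene, Ndufa8, where the share over all genes was 11.9%. The smallest adjusted p by edgeR was 0.383. For 0 of 46 did the 4 KO libraries lie wholly above or below the 4 NLC libraries, against 6.25% of all genes. The 95% intervals of 42 of the 46 fold changes lay within a 1.5-fold change either way. The intervals of Ndufa2, Uqcrq, Cox8b and Atp5o went beyond it at their upper bound. The lowest bound over all 46 was a change of -23.0% (Ndufs1) and the highest 72.3% (Cox8b).

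The fold changes leaned upward without passing the test. In all, 38 of 46 log2 fold changes were above 0 and 8 below, beside 49% above 0 over all genes tested. By length, 12 of 13 under 750 bases, 18 of 18 from 750 to under 1500 and 8 of 15 longer ones were above 0. For other nuclear protein-coding genes of at least 10 CPM, these shares were 93.2%, 79.4% and 43.4%. The median of the 46 log2 fold changes was 0.073, against -0.0050 for all genes, and they ran from -0.18 for Ndufs1 to 0.35 for Cox8b. With KO replicate 1 and NLC replicate 2 left out, a choice made after the data were seen, 26 of 46 were above 0 and the median was 0.0026. With single libraries left out, the count ran from 31 without KO replicate 1 (median 0.036) to 41 without NLC replicate 1 (median 0.12) or without KO replicate 2 (median 0.12). The median was 0.042 without NLC replicate 2. In whole tissue, fewer cells of a type and less RNA per cell cannot be told apart. Of 8 cardiomyocyte markers 7 had a log2 fold change above 0 (median 0.074), and of 8 endothelial markers 7 were below 0 (median -0.17), with summed levels of 1266 to 1568 CPM in NLC and 1190 to 1375 CPM in KO. Without KO replicate 1 and NLC replicate 2, 4 of the 8 cardiomyocyte markers were above 0 (median -0.0040) and 0 of the 8 endothelial markers (median -0.11). The part of cell composition in the lean of the 46 genes was not tested.

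**Figure D1:**
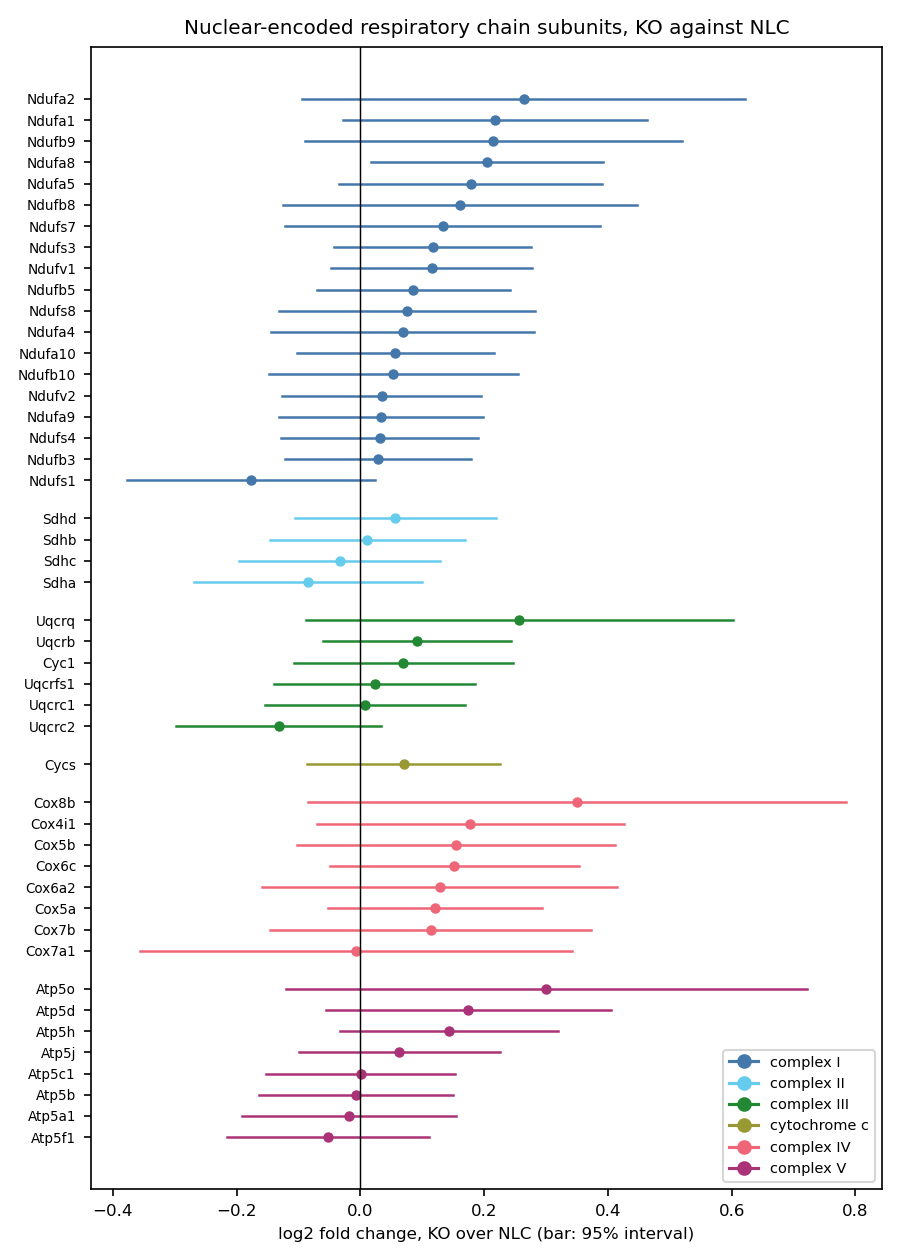
Log2 fold change of KO over NLC (horizontal axis) for each of the 46 subunits, grouped by complex; points are estimates from 4 libraries per group and bars are 95% intervals. Of the points, 38 lie right of 0, and the interval of Ndufa8 alone leaves out 0 before adjustment.

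Taken by complex, the median log2 fold change was 0.086 for complex I, where 18 of 19 genes were above 0, and 0.14 for complex IV, where 7 of 8 were. It was 0.046 for complex III (5 of 6 above 0) and 0.032 for complex V (5 of 8). Complex II alone had a median below 0, at -0.011 with 2 of 4 genes above 0, a value that turned to 0.018 without NLC replicate 1 and to 0.022 without KO replicate 2. Without KO replicate 1 and NLC replicate 2 the medians were 0.016 for complex I, -0.027 for complex II, -0.0050 for complex III, -0.0015 for complex IV and 0.0061 for complex V. The complexes also differed in transcript length, with a median of 709 bases in complex IV, 983 in complex I, 1288 in complex V, 1520.5 in complex III and 2065.5 in complex II.

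A complex score was taken in each library as the mean log2 CPM of its genes, each centred over the 8 libraries. For complex IV it was 0.13, -0.32, -0.014 and -0.091 in NLC replicates 1 to 4 and 0.37, -0.068, -0.026 and 0.021 in KO replicates 1 to 4. NLC replicate 2 was lowest and KO replicate 1 highest, both of them males. The complex I score ran from -0.14 to 0.078 in NLC and from -0.050 to 0.22 in KO, and its extremes were the same 2 libraries. For complex II the order was another, with KO replicate 2 lowest at -0.12 and KO replicate 4 highest at 0.087. The groups overlapped for every complex.

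**Figure D2:**
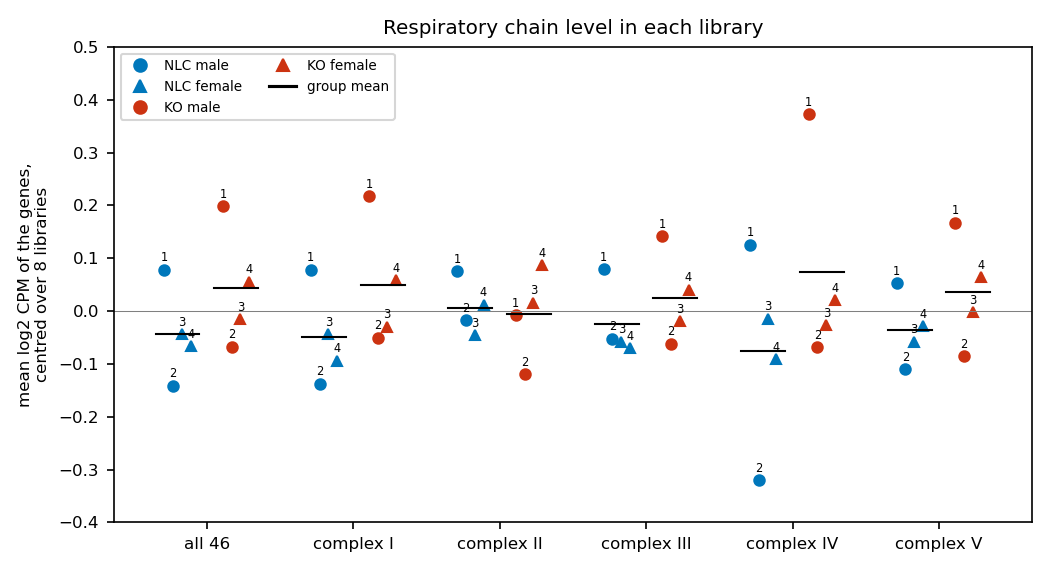
Mean centred log2 CPM (vertical axis) of all 46 genes and of each complex, 1 point per library with its replicate number; circles are males, triangles females, black lines group means. KO replicate 1 is highest and NLC replicate 2 lowest for all 46 genes, complex I, complex IV and complex V, and both lie inside the spread of the others for complex II.

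Levels of different genes were compared as CPM per kb of merged exon. Cox6a2, the heart and muscle form of subunit VIa, was highest, with a level of 2108 ± 353 over all libraries (SD, n = 8). Atp5a1 and Atp5b, the α and β subunits of the catalytic head of ATP synthase, followed at 1560.1 ± 88.8 and 1468 ± 79.7, and their ranges overlapped. Cox4i1, Cox8b and Cox7a1 came next at 1148 ± 156, 1106 ± 313 and 1102 ± 185, which are not separable by their spread. The lowest were Ndufs4 at 62.6 ± 3.60 and Ndufb5 at 66.5 ± 3.68. Merged exon length counts every annotated exon. With the principal transcript as length, Atp5b came first at 3247, then Cox4i1 at 2325 and Cox6a2 at 2108 CPM per kb. On that length Cycs was lowest at 98.2, next to Ndufs4 at 99.9, while Ndufb5 stood at 308 and was not among the lowest.

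**Figure D3:**
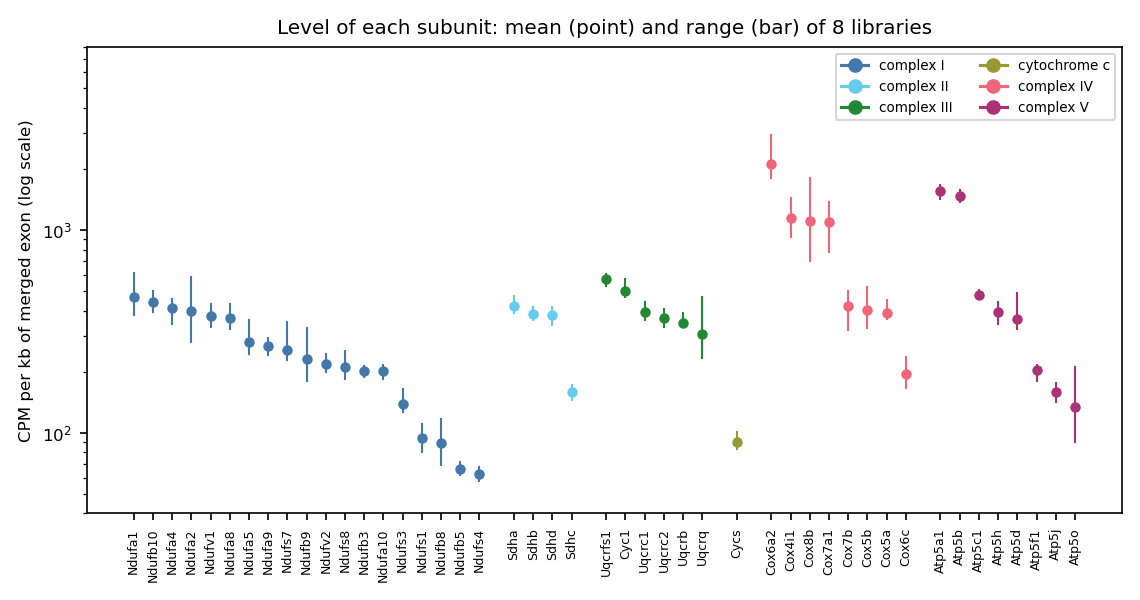
CPM per kb of merged exon (vertical log axis) for each subunit; points are means and bars the range over 8 libraries of both groups. Complex IV holds 4 of the 6 highest subunits, complex V the other 2, and Ndufs4 is lowest.

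In complex I, Ndufa8, an accessory subunit with CHCH motifs (chr2:36036326-36049406, minus strand, GRCm38), had the smallest p of the 46. It stood at 311, 279, 285 and 298 CPM in NLC replicates 1 to 4 and at 373, 304, 316 and 358 CPM in KO replicates 1 to 4. KO replicates 1 and 4 were highest, and the groups overlapped because NLC replicate 1 lay above KO replicate 2. KO over NLC came to 0.20 (edgeR, SE 0.0844, adjusted p = 0.383) on the log2 scale, with a 95% interval from a change of 1.17% to 31.2%. It was close in both sexes, at 0.20 in males and 0.21 in females. Without KO replicate 1 and NLC replicate 2 it was 0.13.

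Ndufa1, a small membrane-arm subunit encoded on the X chromosome, had the highest level per kb of merged exon among the complex I genes, at 468 CPM. Per kb of principal transcript Ndufa4 was highest, at 937 CPM. Ndufa1 stood at 200.2, 159.9, 194 and 170.0 CPM in NLC replicates 1 to 4 and at 258, 196, 188 and 202 CPM in KO replicates 1 to 4. KO replicate 1 was far above the rest, while the other 3 KO animals lay within the NLC range or just above it. This gave a log2 fold change of 0.22 (edgeR, SE 0.111, adjusted p = 0.447), and 0.059 without KO replicate 1 and NLC replicate 2.

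Ndufs1, which carries iron-sulphur clusters in the electron-input arm of complex I (chr1:63143596-63176833, minus strand), was the only complex I gene below 0. It stood at 835, 895, 736 and 780.1 CPM in NLC replicates 1 to 4 and at 649, 684, 755 and 786 CPM in KO replicates 1 to 4. Both male KO animals lay below both male NLC animals, while the females were mixed. Its log2 fold change was -0.18 (edgeR, SE 0.0905, adjusted p = 0.451) over both sexes and -0.38 (edgeR, SE 0.0919, adjusted p = 0.166) in males. In females it was 0.022, and over both sexes without KO replicate 1 and NLC replicate 2 it was -0.078. The remaining 16 complex I genes had log2 fold changes between 0.028 for Ndufb3 and 0.26 for Ndufa2. Ndufs3, Ndufs7, Ndufs8, Ndufv1 and Ndufv2, which with Ndufs1 belong to the conserved catalytic core, lay at 0.12, 0.13, 0.075, 0.12 and 0.034. Of the accessory subunits, Ndufb9 (0.22), Ndufa5 (0.18) and Ndufb8 (0.16) were in the upper range, and Ndufb5 (0.086), Ndufa4 (0.068), Ndufa10 (0.057), Ndufb10 (0.053), Ndufa9 (0.033) and Ndufs4 (0.031) in the lower. Ndufa4 is counted here by its name, although its protein is now known as a component of complex IV.

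Complex II is succinate dehydrogenase, shared with the tricarboxylic acid cycle. Sdha, its flavoprotein (chr13:74322254-74350280, minus strand), stood at 1929, 1956, 1609.8 and 1712 CPM in NLC replicates 1 to 4 and at 1639, 1621, 1701 and 1818 CPM in KO replicates 1 to 4. In males both KO animals lay below both NLC animals, and in females they lay within or above the NLC range. KO differed from NLC by a log2 fold change of -0.085 (edgeR, SE 0.0831, adjusted p = 0.670) over both sexes, -0.25 (edgeR, SE 0.0885, adjusted p = 0.218) in males and 0.083 in females. Without KO replicate 1 and NLC replicate 2 it was -0.026. Sdhc, a membrane anchor, stood at 545, 496, 501 and 558 CPM in NLC replicates 1 to 4 and at 497, 474, 527 and 557 CPM in KO replicates 1 to 4. Its groups overlapped throughout, with a log2 fold change of -0.033 (edgeR, SE 0.073, adjusted p = 0.862). Sdhd, the second anchor, stood at 475, 419.6, 466 and 472 CPM in NLC replicates 1 to 4 and at 469.8, 422, 503 and 515 CPM in KO replicates 1 to 4. The 2 female KO animals were highest and the groups overlapped, with a log2 fold change of 0.057 (edgeR, SE 0.0732, adjusted p = 0.752). Sdhb, the iron-sulphur subunit, lay at 0.011.

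In complex III, Uqcrc2, a core subunit of the matrix side (chr7:120635176-120659524, plus strand), stood at 998, 1038, 936 and 962 CPM in NLC replicates 1 to 4 and at 847, 847, 939 and 962 CPM in KO replicates 1 to 4. The male KO animals were the 2 lowest libraries, and the females of both groups overlapped. KO over NLC came to -0.13 (edgeR, SE 0.0745, adjusted p = 0.480) on the log2 scale over both sexes and -0.27 (edgeR, SE 0.0855, adjusted p = 0.199) in males, with 0.0023 in females, and -0.075 over both sexes without KO replicate 1 and NLC replicate 2. Uqcrc1, the other core subunit, stood at 1776, 1737, 1490.0 and 1491 CPM in NLC replicates 1 to 4 and at 1828, 1587, 1484 and 1615 CPM in KO replicates 1 to 4. Its groups overlapped, with a log2 fold change of 0.0075 (edgeR, SE 0.0729, adjusted p = 0.971).

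Uqcrq, a small accessory subunit, stood at 601, 428, 536 and 476 CPM in NLC replicates 1 to 4 and at 860.2, 551, 537 and 518 CPM in KO replicates 1 to 4. KO replicate 1 stood above all other libraries and NLC replicate 2 below them. This gave a log2 fold change of 0.26 (edgeR, SE 0.156, adjusted p = 0.501), and without those libraries it was -0.00046. Uqcrb, which helps form the ubiquinone site, stood at 304, 293, 292 and 295 CPM in NLC replicates 1 to 4 and at 289.9, 309.8, 321 and 343 CPM in KO replicates 1 to 4. KO replicate 1 was the lowest library and the female KO animals were the 2 highest, so the groups overlapped, and the log2 fold change was 0.091 (edgeR, SE 0.0685, adjusted p = 0.581). Uqcrfs1, the Rieske iron-sulphur protein, had the highest level per kb of merged exon in the complex. Per kb of principal transcript Uqcrc1 was highest there, at 984 CPM. Uqcrfs1 stood at 824, 748, 751 and 778 CPM in NLC replicates 1 to 4 and at 816, 724, 781 and 831 CPM in KO replicates 1 to 4. These ranges overlapped almost fully, with a log2 fold change of 0.023 (edgeR, SE 0.0733, adjusted p = 0.907). Cyc1, cytochrome c1, lay at 0.070.

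Cytochrome c, encoded by Cycs, carries electrons between complexes III and IV. It stood at 289, 296, 291 and 319.6 CPM in NLC replicates 1 to 4 and at 282, 292, 342 and 342 CPM in KO replicates 1 to 4. The female KO animals were the 2 highest libraries and the 4 male libraries lay close together. Its log2 fold change was 0.070 (edgeR, SE 0.0702, adjusted p = 0.676), with a 95% interval from a change of -5.76% to 16.99%, and 0.12 without KO replicate 1 and NLC replicate 2.

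Complex IV, cytochrome c oxidase, held the largest fold change of the 46. Cox8b, the heart and muscle form of subunit VIII (chr7:140898945-140900446, minus strand, with a transcript of 360 bases), stood at 421, 254, 381 and 336 CPM in NLC replicates 1 to 4 and at 648, 384, 372 and 389 CPM in KO replicates 1 to 4. KO replicate 1 was highest and NLC replicate 2 lowest, and the other 6 libraries lay between 336 and 421 CPM. Its log2 fold change was 0.35 (edgeR, SE 0.196, adjusted p = 0.476), with an interval from a change of -5.74% to 72.3%, and 0.015 without those 2 libraries. Cox4i1, the common form of the regulatory subunit IV, stood at 1936, 1439, 1718 and 1578 CPM in NLC replicates 1 to 4 and at 2243, 1742, 1711 and 1862 CPM in KO replicates 1 to 4. Again KO replicate 1 was highest and NLC replicate 2 lowest, and the log2 fold change was 0.18 (edgeR, SE 0.112, adjusted p = 0.512), or 0.029 without them. Cox6c, an accessory subunit, stood at 733, 596, 676 and 644 CPM in NLC replicates 1 to 4 and at 841, 691, 694 and 719 CPM in KO replicates 1 to 4. KO replicate 1 lay above all 4 NLC values and the other 3 KO animals above all but that of NLC replicate 1, and the log2 fold change was 0.15 (edgeR, SE 0.0907, adjusted p = 0.496). It was 0.081 without KO replicate 1, 0.082 without NLC replicate 2 and 0.039 without both.

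Cox6a2, the subunit with the highest level per kb of merged exon, stood at 1519, 1230.4, 1383 and 1332 CPM in NLC replicates 1 to 4 and at 1994, 1315, 1340.1 and 1354 CPM in KO replicates 1 to 4. The KO animals other than replicate 1 lay within the NLC range. KO differed from NLC by a log2 fold change of 0.13 (edgeR, SE 0.129, adjusted p = 0.679), and -0.075 without KO replicate 1 and NLC replicate 2. Cox7a1, the heart and muscle form of subunit VIIa, lay at -0.0070, the only complex IV gene below 0. The log2 fold changes of Cox5a, Cox5b and Cox7b were 0.12, 0.15 and 0.11.

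The heart forms of complex IV subunits made up most of the message in each pair, and no difference in these shares between the groups passed the test. Per kb of exon, Cox6a2 made up 94.5%, 94.4%, 94.2% and 93.5% of Cox6a2 plus Cox6a1 in NLC replicates 1 to 4 and 94.7%, 93.8%, 92.8% and 93.8% in KO replicates 1 to 4. These ranges overlapped, with a difference of -0.36 percentage points (exact two-sided permutation p = 0.429). Cox7a1 made up 78.8% ± 1.94 of its pair with Cox7a2 in NLC and 77.3% ± 1.25 in KO, a difference of -1.55 percentage points (SD, n = 4 each, exact permutation p = 0.229). Cox8b made up 82.2% ± 1.87 of its pair with Cox8a in NLC and 84.0% ± 1.45 in KO, a difference of 1.78 percentage points (SD, n = 4 each, exact permutation p = 0.143). Adjusted over the 3 pairs, the smallest of these p-values was 0.343, where 4 against 4 libraries cannot go below 0.0286. Cox4i1 made up 98.7% of its pair with Cox4i2, a form known from lung, in NLC and 98.8% in KO.

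In complex V, Atp5o, the stalk subunit also called OSCP (chr16:91925214-91931687, minus strand), stood at 262, 177, 249.6 and 253 CPM in NLC replicates 1 to 4 and at 417, 232, 262 and 254 CPM in KO replicates 1 to 4. KO replicate 1 stood far above and NLC replicate 2 far below the other 6 libraries, which overlapped. KO over NLC came to 0.30 (edgeR, SE 0.189, adjusted p = 0.512) on the log2 scale, and -0.033 without those 2 libraries. A second identifier of the same name shares 243 bases of exon with it, so part of its reads may be uncounted. Atp5d, the δ subunit of the head's central stalk, stood at 713, 635, 627 and 673 CPM in NLC replicates 1 to 4 and at 941, 681, 695 and 682 CPM in KO replicates 1 to 4. KO replicate 1 was again highest, with the other KO animals inside the NLC range. This gave a log2 fold change of 0.17 (edgeR, SE 0.104, adjusted p = 0.494), and 0.035 without KO replicate 1 and NLC replicate 2. Atp5h, subunit d of the outer stalk, stood at 581, 506, 554 and 549 CPM in NLC replicates 1 to 4 and at 644, 570.5, 562 and 644 CPM in KO replicates 1 to 4. KO replicates 1 and 4 were highest, and the log2 fold change was 0.14 (edgeR, SE 0.0793, adjusted p = 0.474), or 0.078 without KO replicate 1 and NLC replicate 2.

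Atp5a1 and Atp5b had the most reads of all 46 genes. Atp5a1 stood at 5132, 5169.5, 4570.2 and 4817 CPM in NLC replicates 1 to 4 and at 4919, 4463, 4832 and 5225 CPM in KO replicates 1 to 4. In males KO lay below NLC, in females KO lay above NLC, and over both sexes the log2 fold change was -0.018 (edgeR, SE 0.0779, adjusted p = 0.932). The difference between the sexes had an adjusted p of 0.673 by edgeR. Atp5b lay at -0.0066, Atp5c1, the γ subunit that turns within the head, at 0.00074, Atp5f1, subunit b of the outer stalk, at -0.052 and Atp5j, the coupling factor 6, at 0.063.

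The fold changes of the 46 genes covered a wider range in males than in females, a difference in spread that was not tested. In males 0 of 46 genes were called by edgeR, against 6 of 14695 genes (0.0408%), and 5 had an unadjusted p under 0.05, where the background was 17.5%. Of these, Cox8b (0.61) and Ndufa2 (0.48) were higher and Ndufs1, Sdha and Uqcrc2 lower in KO. Fold changes ran from -0.38 to 0.61, with 28 of 46 above 0 beside 51.4% of all genes. DESeq2 called 1 of the 46 in males, Ndufs1, at -0.38 with an adjusted p of 0.0187, among 312 genes that it called there. In females edgeR called 0 of 46 and 0 of all genes (0%), with 0 of 46 at an unadjusted p under 0.05 against 5.12%, and DESeq2 called 0 of 46. Fold changes in females ran from -0.097 for Cox7a1 to 0.21 for Ndufa8, with 43 of 46 above 0 beside 47.3% of all genes. The median was 0.068 in males and 0.080 in females.

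The test of the difference between the sexes called 0 of 46 genes and 0 of all genes (0%) by edgeR, and DESeq2 called 0 of 46. At an unadjusted p under 0.05 it gave 2 genes, Ndufs1 (-0.40) and Sdha (-0.34), against 7.46% of all genes. Between males and females of both groups edgeR called 0 of 46, beside 0.299% of all genes, and DESeq2 also called 0. At an unadjusted p under 0.05 there were 2 genes (background 12.8%). Uqcrc1 was 0.19 (SE 0.0729, edgeR adjusted p = 0.330) in males over females, and Cycs -0.16 (SE 0.0702, edgeR adjusted p = 0.387).

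Across the 46 genes the fold change in males went with transcript length. The 13 genes with transcripts under 750 bases had a median log2 fold change of 0.21 in males, and 13 of 13 were above 0. The 18 genes from 750 to under 1500 bases had a median of 0.15 with 12 above 0, and the 15 genes of 1500 bases and over had -0.041 with 3 above 0. Uqcrq, whose principal transcript has 1521 bases, was the highest of the long class in males at 0.45. The annotated transcript may be longer than the form present in heart, which was not examined, and a shorter form could place Uqcrq in another class. In females the medians of these classes were 0.076, 0.080 and 0.081. Over the 46 genes, which share the same 8 libraries, Spearman's rho between transcript length and log2 fold change was -0.70 in males, 0.0049 in females and -0.60 over both. For the fold change over both sexes it was -0.083 without KO replicate 1 and NLC replicate 2.

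**Figure D4:**
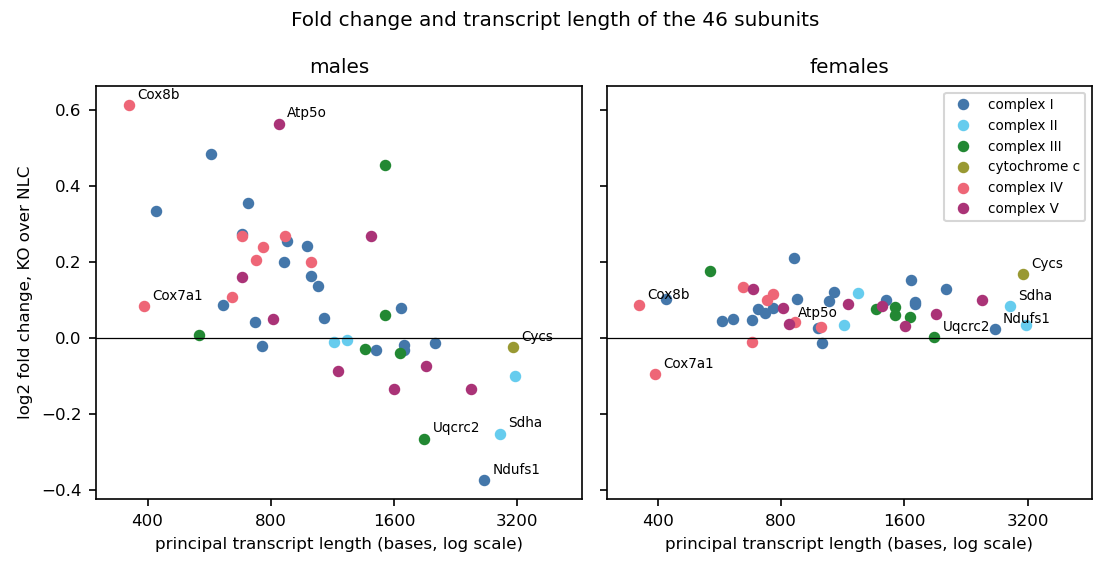
Log2 fold change of KO over NLC (vertical axis) against the length of the principal transcript (log axis) for the 46 subunits, in males (left) and females (right), 2 animals per group and sex. In males Cox8b, with 360 bases, is highest at 0.61 and Ndufs1, with 2661 bases, lowest at -0.38, and in females no such slope is seen.

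Other nuclear protein-coding genes showed the same order of classes. With at least 10 CPM, the 147 under 750 bases had a median of 0.30 in males with 97.3% above 0, the 962 from 750 to under 1500 bases 0.15 with 79.4% above 0, and the 7126 longer ones -0.044 with 41.7% above 0. In females the 3 medians were 0.047, 0.051 and -0.0039. Among the 46 genes, the short class had a median centred level of 0.099, -0.25, -0.018 and -0.091 in NLC replicates 1 to 4 and 0.27, -0.068, -0.033 and 0.046 in KO replicates 1 to 4. The long class stood at 0.072, 0.015, -0.058 and -0.026 in NLC and at 0.010, -0.097, -0.015 and 0.060 in KO. The short class was thus highest in KO replicate 1 and lowest in NLC replicate 2, as in the other genes, and the long class was not. Between these 2 libraries 38 of 46 subunits were higher in KO, while in the other male pair 44 of 46 were lower in KO replicate 2 than in NLC replicate 1.

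Variation between animals also went with length. The coefficient of variation over the 8 libraries had a median of 14.9% for the short class, 8.98% for the middle and 7.10% for the long class. It was lowest for Atp5c1 at 4.07% and highest for Cox8b at 28.3%. With each library's trend on transcript length removed, a fit chosen after the data were seen, 21 of 46 genes were above 0 and the median was -0.015. RNA integrity is not given in the sources used here, and the part of RNA quality, depth or library preparation in the length pattern was not tested.

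**Figure D5:**
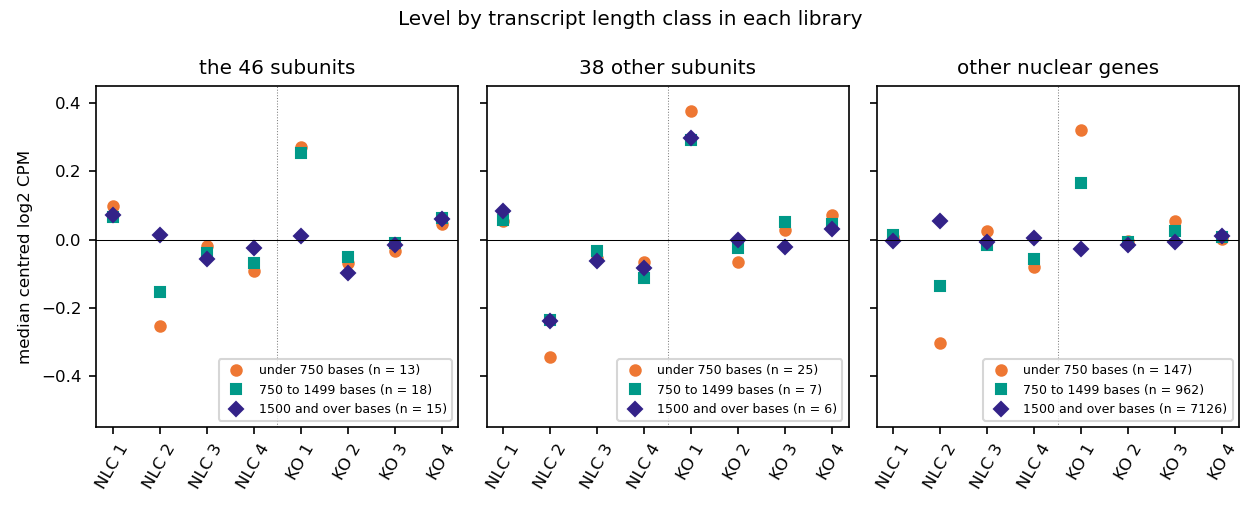
Median centred log2 CPM (vertical axis) in each of the 8 libraries for 3 classes of transcript length, among the 46 subunits, 38 further subunits and other nuclear protein-coding genes of at least 10 CPM. Transcripts under 750 bases are lowest in NLC replicate 2 and highest in KO replicate 1 in all 3 sets, at -0.25 and 0.27 in the 46 subunits.

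Further genes of the pathway were taken from lists. Of 39 other subunits 38 were tested, and the remaining one, Cox8c, had 0 reads in all 8 libraries, so that its level may be as high as 0.0793 to 0.122 CPM, the value of 3 counts (counting error only). All 38 had a log2 fold change above 0, beside 49% of all genes, with a median of 0.20, 0 were called, and 7 were higher at an unadjusted p under 0.05 (background for higher genes 5.77%). By transcript length, 25 of 25 under 750 bases were above 0 (median 0.21), 7 of 7 from 750 to under 1500 bases (median 0.15) and 6 of 6 of 1500 bases and over (median 0.11, or 0.24 in males). Unlike that of the 46 genes, the long class here was also highest in KO replicate 1 (0.30) and lowest in NLC replicate 2 (-0.24). These 6 principal transcripts have a median of 3106 bases and reach 4715. Whether the forms present in heart are shorter, and so belong to another class, was not examined. Among other nuclear protein-coding genes of at least 10 CPM, the shares above 0 in these classes were 93.2%, 79.4% and 43.4%. Their medians over both sexes were 0.18, 0.10 and -0.023. With the length trend removed, 33 of 38 were above 0 and the median was 0.067. Without KO replicate 1 and NLC replicate 2, 27 of 38 were above 0 and the median was 0.039. For 6 of them the 4 KO libraries lay above the 4 NLC libraries, against 3.22% of all genes.

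Ndufc1, a small complex I subunit, had the smallest p of these. It stood at 145, 125, 135 and 128 CPM in NLC replicates 1 to 4 and at 201, 159.9, 153 and 147 CPM in KO replicates 1 to 4. The lowest KO animal lay just above the highest NLC animal, and the log2 fold change was 0.30 (edgeR, SE 0.0918, adjusted p = 0.298), or 0.18 without KO replicate 1 and NLC replicate 2. Cox6b2, a form known from testis, was at 1.10 to 1.80 CPM in NLC and 1.93 to 2.52 CPM in KO, so its log2 fold change of 0.62 (edgeR, SE 0.226, adjusted p = 0.350) rests on a trace. Atpif1, the inhibitor of the ATP synthase, stood at 104, 87.7, 104 and 96.03 CPM in NLC replicates 1 to 4 and at 178, 118, 108 and 112 CPM in KO replicates 1 to 4. All KO animals lay above all NLC animals, KO replicate 1 by far the most, and the log2 fold change was 0.38 (edgeR, SE 0.14, adjusted p = 0.350), or 0.15 without those 2 libraries. The partner forms Cox6a1, Cox7a2, Cox8a and Cox4i2 had log2 fold changes of 0.21, 0.14, 0.18 and 0.026.

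Of 45 assembly factors, which build the complexes but are not part of them, 0 were called and 29 were above 0, with a median of 0.025. Cox19, a copper chaperone of complex IV assembly, had 0.34 (edgeR, SE 0.0945, adjusted p = 0.265) and Ndufaf2, an assembly factor of complex I, 0.27 (edgeR, SE 0.108, adjusted p = 0.373). Of the 13 mitochondrially encoded subunits 10 were above 0, beside 49% of all genes, with a median of 0.070, and 0 were called. Their log2 fold changes ran widely, from -0.085 to 0.82. Their mean centred level ran from -0.44 in KO replicate 4 to 0.76 in KO replicate 1. These transcripts took 17.4% to 21.9% of gene reads with the other mitochondrial genes. Of 15 other genes of mitochondrial membranes and matrix, chosen as a measure of the organelle, 12 were above 0 with a median of 0.064, and 0 were called. Tomm40, the pore of the outer membrane import channel, had 0.18 (edgeR, SE 0.0812, adjusted p = 0.423). Without KO replicate 1 and NLC replicate 2, 22 of the 45 assembly factors (median -0.00048), 6 of the 13 mitochondrially encoded subunits (median -0.0073) and 12 of the 15 organelle genes (median 0.065) were above 0. The summed level of the organelle genes was 11262 to 12487 CPM in NLC and 11472 to 13068 CPM in KO.

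Nuclear respiratory factor 1 (NRF1) is known to bind promoters of many respiratory genes, so promoters were searched for the letters of its site. RefSeq promoter windows of GRCm38.p6 were matched for 34 of the 46 genes, taking the 250 bases before a RefSeq transcript start. GENCODE M21, used for all other results, starts some of these genes further upstream: 22 of the 34 windows reach into the gene's own GENCODE span, 4 of them wholly, and 26 hold bases of an annotated exon of some gene. For 27 of 34, a stretch of bases after the RefSeq start occurred in a GENCODE transcript of the gene, not necessarily at its beginning. The letters GCGCATGC, on either strand, occurred in 3 of 34 (8.8%), against 2.3% of 32851 promoters in the table. The 34 windows were richer in G and C, with a median of 57.6% against 52.4% for all promoters. The part of base composition in the motif shares was not tested. In all 3 the letters lay on the strand opposite to the gene, so the capitals below read GCATGCGC, their reverse complement. The 3 windows are shown in the direction of the gene, at chr2:36049339-36049368 (minus strand), chr4:140961206-140961235 (plus strand) and chr6:50566611-50566640 (minus strand).
Ndufa8: gcgcttgcgcgtcgctggagacGCATGCGC
Sdhb: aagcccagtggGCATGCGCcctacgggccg
Cycs: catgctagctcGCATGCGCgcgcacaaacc
In these genes the first letter lay 8, 54 and 60 bases before the RefSeq start. For Ndufa8 and Sdhb it lay 60 and 14 bases after the GENCODE start, inside the gene, and for Cycs before it. The log2 fold changes of the 3 were 0.20, 0.011 and 0.070. CCGGAAG, the core of ETS and GABP sites, was found in 8.8% of the 34 and 6.9% of all, and GGGCGG, read by Sp1, in 32.4% and 32.7%. AAGATGG (YY1) and TCAAGGTCA (oestrogen-related receptors) occurred in 0 of 34, against 4.5% and 0.4% of all. No other motif searched overlapped the capitals in the 3 windows. A match describes letters in a window and says nothing of binding.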

How the data were processed

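Each library has 1 deposited file of raw counts of reads for every Ensembl gene. The submitters' processing notes name STAR, HTSeq, DESeq2 and the build GRCm38. Which release annotated the genes, and whether counting used strand, is not given in the sources used here. Summary entries were kept out of library sizes; of the reads tallied in a library, 16.8% to 20.3% were multiply mapped, so genes with near-identical copies may be undercounted. Exons of 16 of the 46 genes overlap exons on the opposite strand, whose reads may not be separated.

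Symbols and lengths came from GENCODE M21. The main test was edgeR 4.0.16 in R 4.3.3 (filterByExpr by genotype, TMM scaling, glmQLFit, glmQLFTest, additive sex term), with Benjamini-Hochberg adjustment over 14695 genes and a threshold of 0.05. Contrasts within a sex used a fit of the 4 means of sex and genotype. Scores use log2(CPM + 0.5). The edgeR fits were tested on simulated counts with known changes, in 3 simulations. The changed genes were drawn at random from genes of many levels, and no trend on transcript length within a library was simulated. The shares below describe that draw and not the subunit genes themselves. Of changes of 1.2-fold, 1.5-fold and 2-fold, 3.33%, 64% and 88.7% were recovered in KO against NLC. For changes in males alone the shares were 0%, 18.7% and 74%. False calls made up 4.99% of all calls in the first comparison and 8.03% in males. Changes of about 1.2-fold were thus mostly missed in that draw. Alternatives were DESeq2 1.42.0, limma voom 3.58.1, other scalings, filters and covariates, and each library left out in turn.

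The 46 genes and the lists were chosen with earlier results of these data known. Values in every library are given for the 3 genes of each complex with the smallest p, the highest per kb of merged exon, Cycs, and up to 2 genes with the smallest p in the other contrasts. Coding sequences are from GENCODE M21 and promoters from RefSeq on GRCm38.p6.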

Additional observations from a re-analysis of the deposited data

Results flagged for a closer look

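In 58 groups of 4 libraries, the highest or lowest library was set against the others by Dixon's test at 95%. In 7 groups a library stood apart, where chance gives about 1 in 20 for a single group. The groups share the same 8 libraries, and most of the genes were picked by their p in these data. The count can therefore not be set against that rate. KO replicate 1 stood high in the KO group for Atp5d (941 CPM), Atp5o (417 CPM), Cox6a2 (1994 CPM), Cox8b (648 CPM) and Uqcrq (860.2 CPM). NLC replicate 2 stood low for Atp5o (177 CPM). NLC replicate 1 stood high in the NLC group for the complex III score (0.079). Atp5a1 differed in direction between the sexes, with both male KO libraries below both male NLC libraries and both female KO libraries above both female NLC libraries. The difference of the mean differences, males less females, was -794 CPM, and the interaction in edgeR had an adjusted p of 0.673. The cause of these values was not tested.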

How the results depend on the processing

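No gene of the 46 was called under 21 of 22 alternatives for KO against NLC. Without a filter on low counts 2 were called by edgeR, Cox8b (adjusted p = 0.00418) and Atp5o (adjusted p = 0.0269), among 621 genes called. In males DESeq2 called 1. The median of the 46 ran from -0.015 to 0.12 and its lowest value came with the length trend removed, where 21 genes were above 0 and the complex III median was -0.047. The replicate numbers were not taken as pairs in the main test. Deviations from group means of same-numbered libraries correlated at 0.29, 0.11, -0.21 and 0.092. Same numbers share the sex, and so few values cannot decide whether the samples were paired. With a replicate block 0 of the 46 were called and 39 were above 0, with no share over all genes given beside them. The named fold changes that changed sign were those of Uqcrc1 (-0.0097 with library size alone, -0.0038 with the atrial score as covariate, -0.044 with the length trend removed, -0.015 without KO replicate 1 and NLC replicate 2), Sdhd (-0.029), Uqcrb (-0.063), Uqcrfs1 (-0.051) and Cox6a2 (-0.016) with the length trend removed, and, without those 2 libraries, Uqcrq (-0.00046), Uqcrfs1 (-0.0095), Cox6a2 (-0.075), Atp5o (-0.033) and Atp5a1 (0.0014). With each library left out in turn, the ranges were -0.027 to 0.054 for Uqcrc1, -0.077 to 0.0069 for Sdhc, -0.064 to 0.031 for Atp5a1, -0.0057 to 0.065 for Uqcrfs1 and -0.033 to 0.21 for Cox6a2. The cause of these changes was not tested. With 2 animals per sex and genotype, contrasts within a sex are less precise than the comparison of all 8 libraries.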
